A study of Mus musculus with 8 samples.

Results

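Translation initiation factors are the proteins that assemble a ribosome on an mRNA and place it on the start codon. The genes described here are the 50 mouse genes whose symbol begins with Eif1 to Eif6, taken by name from the merged table, with the eIF2 kinases and the pseudogenes (11 symbols) left out and a mean over the 8 libraries of at least 0 on the log2 CPM scale (1 CPM, a read count scaled to a common library size). All 50 matching names passed this minimum, out of 13744 genes in the table and 12752 genes above the same minimum. The rule uses symbols and not measured values, although the set was proposed with earlier results of these data known.

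RNA was measured in Ly6C+ classical monocytes of mouse bone marrow, which give rise to the Ly6C-low nonclassical monocytes of the blood. The 4 genotypes, with 2 libraries each and no treatment named, were wild type, a knockout of Nr4a1 (Nr4a1 KO), a knockout of Irf2 (Irf2 KO) and a conditional knockout of Bcl6 (Bcl6 cKO). The labels used here leave out the driver of the conditional deletion, the strain, age and sex, and how many mice stand behind a library. Replicates may thus be technical, and p-values measure only how far these samples spread. The series title places Bcl6 and Irf2 in nonclassical monocyte development.

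In the scheme known for mammalian cells, eIF1 and eIF1A keep the small ribosomal subunit in an open, scanning state. eIF2 brings the initiator tRNA and is recharged by eIF2B, and eIF3 is the large scaffold on the small subunit. The mRNA cap is bound by eIF4E, which joins the scaffold eIF4G and the helicase eIF4A. The eIF4E-binding proteins compete with eIF4G for eIF4E when the kinase mTORC1 is inactive. eIF5 and eIF5B act at start codon recognition and subunit joining, eIF5A helps the ribosome through difficult stretches and carries the modified amino acid hypusine, and eIF6 keeps the large subunit apart from the small one.

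Promoter windows are shown for a few of the genes that were called. RefSeq windows on GRCm38.p6 matched 39 of the 50 genes (51 windows). Bases upstream of the start site are printed for Eif1, Eif1ax and Eif4g1, which were lower by several fold in Nr4a1 KO, and for Eif3a, which was called higher in Irf2 KO by a small amount (0.35 on the log2 scale) and holds the element searched for interferon response factors, up to the first annotated GENCODE exon where the window ran into one. No window of Eif4ebp1 was used here. Capitals mark matches to the motifs searched on both strands. These were GC boxes (GGGCGG or its reverse complement), an E-box (CACGTG) in Eif4g1 and the core of an interferon response element (GAAA, any 2 bases and GAAA again, or its reverse complement) in Eif3a. The windows were chr11:100319699-100319884 on the plus strand for Eif1, chrX:159371928-159372177 on the plus strand for Eif1ax, chr16:20672477-20672722 on the plus strand for Eif4g1 and chr19:60790694-60790943 on the minus strand for Eif3a.
Eif1: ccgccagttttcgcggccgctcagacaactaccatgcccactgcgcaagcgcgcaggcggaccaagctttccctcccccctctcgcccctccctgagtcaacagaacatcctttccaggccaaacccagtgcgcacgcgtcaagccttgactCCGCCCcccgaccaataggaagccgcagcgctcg
Eif1ax: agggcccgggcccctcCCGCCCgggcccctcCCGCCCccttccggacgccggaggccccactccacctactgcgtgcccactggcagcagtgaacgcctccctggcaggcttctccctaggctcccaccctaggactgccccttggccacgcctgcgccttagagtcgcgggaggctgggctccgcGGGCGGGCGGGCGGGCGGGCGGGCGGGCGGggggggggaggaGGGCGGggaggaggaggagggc
Eif4g1: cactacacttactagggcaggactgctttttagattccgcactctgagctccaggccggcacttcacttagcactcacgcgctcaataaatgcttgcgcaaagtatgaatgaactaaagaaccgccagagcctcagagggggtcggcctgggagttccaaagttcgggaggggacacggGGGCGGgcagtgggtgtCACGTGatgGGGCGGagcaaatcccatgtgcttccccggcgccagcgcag
Eif3a: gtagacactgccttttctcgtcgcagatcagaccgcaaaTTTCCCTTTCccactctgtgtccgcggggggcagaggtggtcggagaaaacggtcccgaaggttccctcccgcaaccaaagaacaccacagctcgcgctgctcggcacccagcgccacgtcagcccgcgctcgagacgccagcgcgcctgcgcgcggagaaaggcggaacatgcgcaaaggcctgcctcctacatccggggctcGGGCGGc

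Motif shares were counted over the 250 bases upstream of the start in all 32851 windows of the table. The NR4A site AAAGGTCA was in 1.34% of all windows and in those of 0 of the 39 genes. The interferon response element core was in 2.98% of all windows and in those of 2 genes, Eif2s1 and Eif3a. The core TTCNNNGAA of the kind that BCL6 binds was in 7.02% of all windows and in those of 3 genes (Eif3c, Eif3g and Eif4e). GGGCGG was in 32.7% of all windows and in those of 30 genes, and CACGTG in 6.02% of all windows and in those of 9 genes. These shares are per window and the gene counts are per gene. A gene with several of the 51 windows thus had more chances of a match. GC boxes and GC content go together, and the median GC content was 62.0% in the windows of the initiation factor genes and 52.4% in all windows. A match describes letters, and the absence of one says nothing about binding elsewhere.

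Each library held 46617756 to 62633123 reads assigned to genes. In the deposited values 1 CPM stood for 47.92 to 61.85 reads, which did not follow from these totals alone. Wild type replicate 2 had 52464291 reads and 51.32 per CPM, while Nr4a1 KO replicate 1 had 48579784 reads and 51.02 per CPM. The deposited values thus carry a scaling per library beyond the read total. Nr4a1 was 4.97-fold lower in Nr4a1 KO than in wild type, with 24.9 and 39.1 CPM in wild type and 4.99 and 7.9 in Nr4a1 KO. It was also 5.30-fold lower in Irf2 KO (6.04 and 5.72 CPM, limma adjusted p = 0.00163), so its level was low in both genotypes. Irf2 was 1.48-fold lower in Irf2 KO (limma adjusted p = 0.0222), a call that ended without any 1 of the 4 libraries of wild type and Irf2 KO (up to 0.121), and Bcl6 was 2.10-fold lower there (limma adjusted p = 0.00382). Bcl6 was 3.52-fold higher in the libraries labelled Bcl6 cKO (log2 difference 1.81 ± 0.16), against the direction of the label as read over the whole gene. Directions for that genotype therefore rest on the label alone. Of the classical monocyte markers 11 of 11 were read in every library, summing to 34400 to 39400 CPM in wild type, 35800 to 36700 in the libraries labelled Bcl6 cKO, 21700 to 24000 in Irf2 KO and 36900 to 40300 in Nr4a1 KO. In bulk RNA, fewer cells of a type and less RNA per cell cannot be told apart.

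Most initiation factor genes were not called changed in any knockout, and a small number differed from wild type by several fold. Changes are log2 differences ± SE of log2 CPM with n = 2 libraries per genotype, and a gene is called changed at a limma adjusted p under 0.05 over all 12752 genes. In Nr4a1 KO against wild type 11 of the 50 genes passed (22%), with 4 higher and 7 lower, beside 15.1% of all genes (3.94% higher and 11.2% lower). In Irf2 KO 11 passed (22%), with 8 higher and 3 lower, beside 21.6% of all genes (9.26% higher and 12.3% lower). In the libraries labelled Bcl6 cKO 2 passed (4%), both lower, beside 5.01% of all genes (1.36% higher and 3.65% lower), and at an unadjusted p under 0.05 limma counted 5 higher and 8 lower. The shares for Irf2 KO and for the libraries labelled Bcl6 cKO were near those of all genes.

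The median change of the 50 genes was -0.03 in Nr4a1 KO (all genes 0.01), 0.18 in Irf2 KO (all genes -0.04) and -0.02 in the libraries labelled Bcl6 cKO (all genes -0.01). Of the 50 genes 18 were called in at least 1 of these comparisons, 13 of them in 1, 4 in 2 and 1, Eif4ebp1, in 3. The same counts were not made over all genes, so these numbers have no background beside them. The 3 comparisons share the wild type libraries. Median centring of the libraries moved the median change of all genes by 0.13 in Nr4a1 KO, 0.10 in Irf2 KO and 0.07 in the libraries labelled Bcl6 cKO. With centring the called genes were 11 higher and 7 lower in Nr4a1 KO and 15 higher and 1 lower in Irf2 KO, so the split of small changes depended on scaling.

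**Figure D1:**
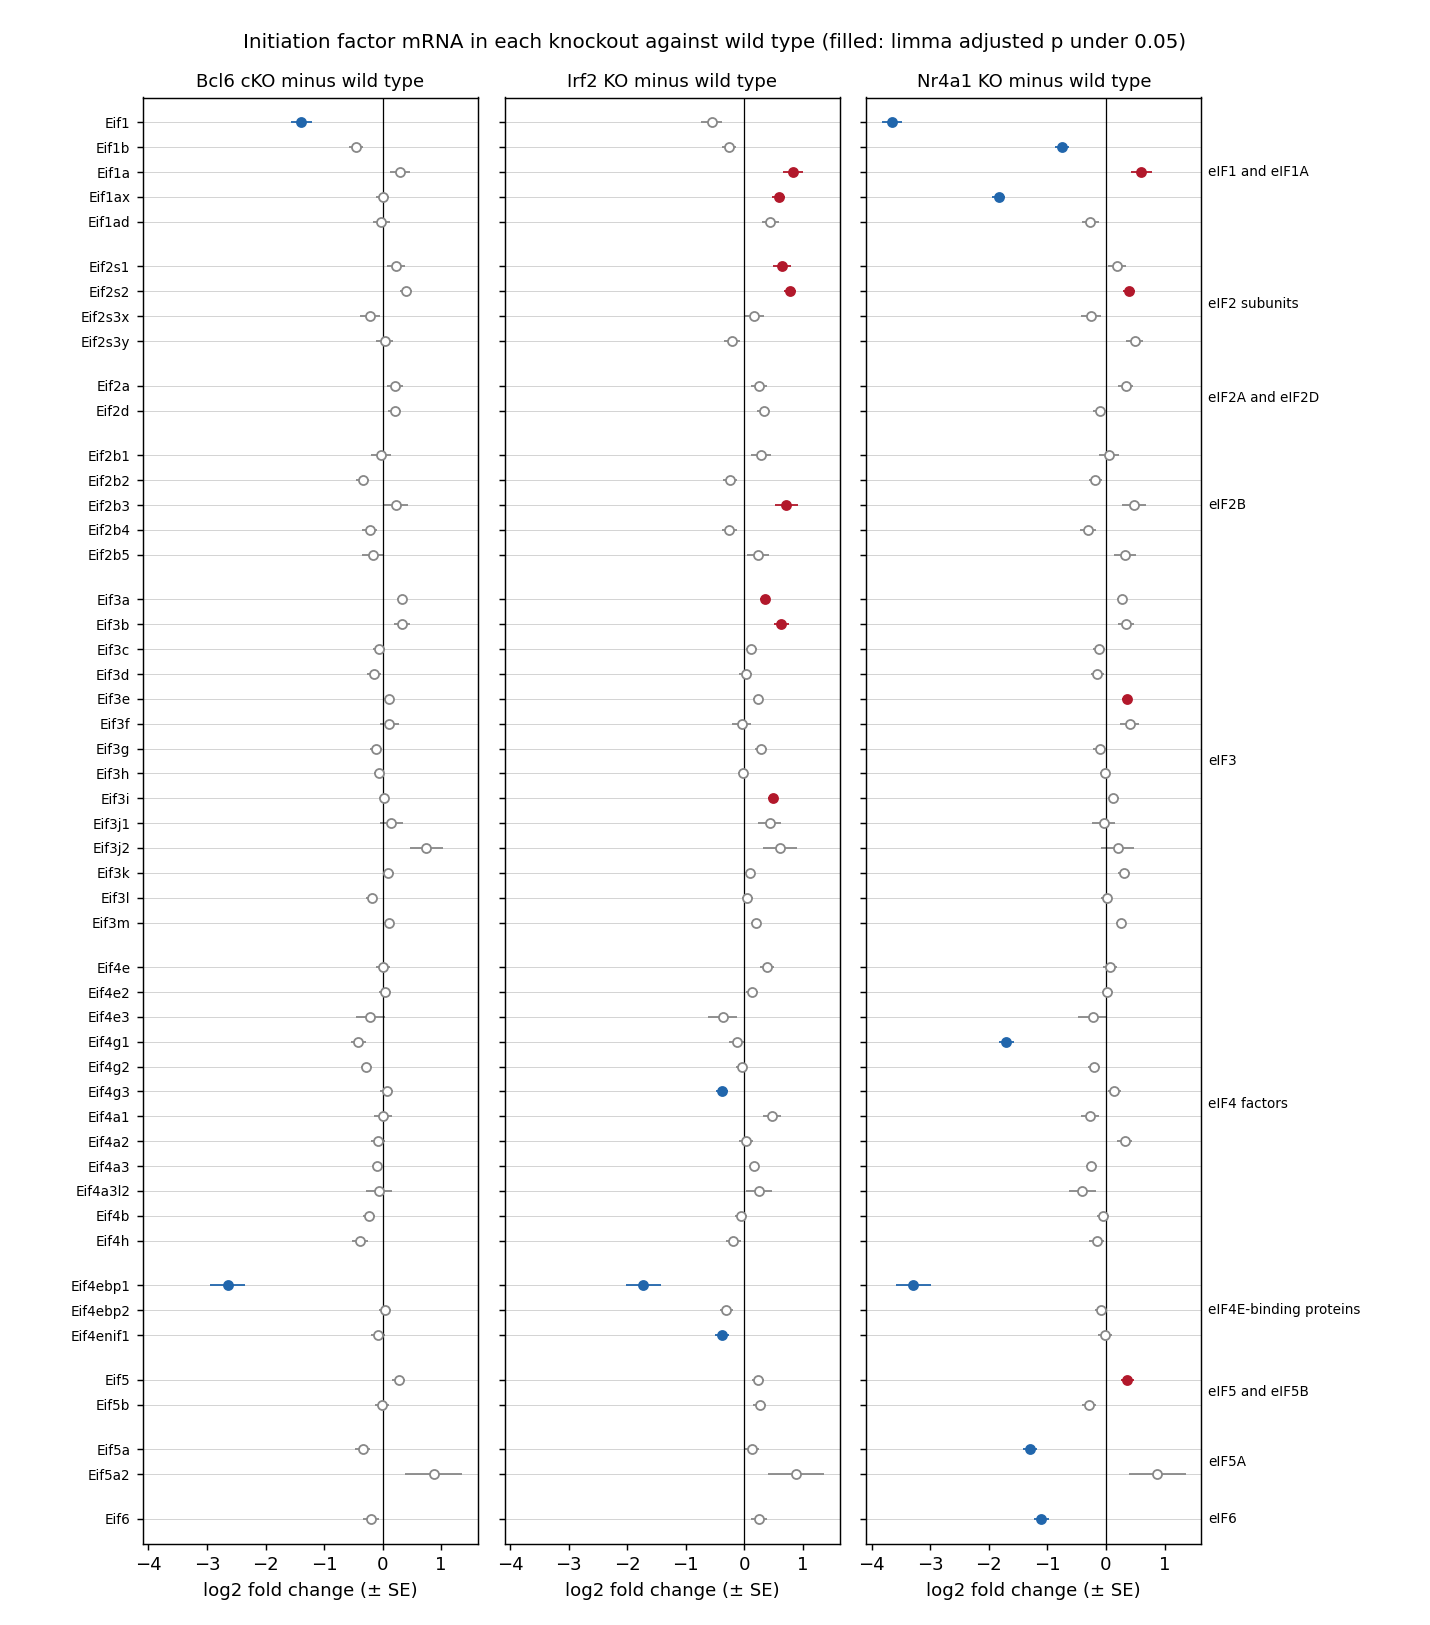
Log2 fold change ± SE (x axis) of each of the 50 genes (y axis, grouped by role) in each knockout against wild type, from limma with 2 libraries per genotype. Filled points have a limma adjusted p under 0.05, red for higher and blue for lower, and most genes lie near 0 while Eif1, Eif1ax, Eif4g1, Eif4ebp1, Eif5a and Eif6 lie far to the left in Nr4a1 KO.

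The change of greatest size in Nr4a1 KO was in Eif1 (ENSMUSG00000035530, chromosome 11, 100319885 to 100322096 on GRCm38), which encodes the factor that guards start codon choice. Its levels were 10.00 and 9.97 log2 CPM in wild type, 8.28 and 8.91 in the libraries labelled Bcl6 cKO, 9.39 and 9.46 in Irf2 KO, and 6.26 and 6.40 in Nr4a1 KO. The 4 genotypes did not overlap, with wild type highest and Nr4a1 KO lowest. Eif1 was 12.6-fold lower in Nr4a1 KO than in wild type (log2 -3.66 ± 0.18, limma adjusted p = 1.61e-05) and 2.62-fold lower in the libraries labelled Bcl6 cKO (-1.39 ± 0.18, limma adjusted p = 0.00589). In Irf2 KO the difference of -0.56 ± 0.18 did not pass (limma adjusted p = 0.0536). In reads, Eif1 fell from 59374 and 51331 in the wild type libraries to 3905 and 4036 in those of Nr4a1 KO, so counting error was small beside the change.

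Eif1b encodes a near copy of eIF1 on chromosome 9. It had 6.30 and 6.19 log2 CPM in wild type, 5.73 and 5.83 in the libraries labelled Bcl6 cKO, 5.97 and 5.99 in Irf2 KO, and 5.37 and 5.61 in Nr4a1 KO. Wild type was again highest and Nr4a1 KO lowest, without overlap, over a narrower range than for Eif1. Eif1b was 1.69-fold lower in Nr4a1 KO (-0.75 ± 0.12, limma adjusted p = 0.00326), and its differences in the libraries labelled Bcl6 cKO (-0.46 ± 0.12, limma adjusted p = 0.0629) and in Irf2 KO (-0.26 ± 0.12, limma adjusted p = 0.144) did not pass. Per length of exon, Eif1 stood at 6.93 and 7.37 times Eif1b in the wild type libraries. This ratio was 3.13 and 4.54 in the libraries labelled Bcl6 cKO, 5.73 and 5.98 in Irf2 KO, and 0.988 and 0.925 in Nr4a1 KO, where both genes stood at about the same level.

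The eIF1A genes moved apart in Nr4a1 KO and rose together in Irf2 KO. Eif1ax, the X-linked gene (chromosome X, 159372178 to 159389928), had 7.13 and 6.98 log2 CPM in wild type, 7.03 and 7.08 in the libraries labelled Bcl6 cKO, 7.59 and 7.70 in Irf2 KO, and 5.12 and 5.34 in Nr4a1 KO. Irf2 KO lay above and Nr4a1 KO far below the other libraries. Eif1ax was 3.56-fold lower in Nr4a1 KO (-1.83 ± 0.11, limma adjusted p = 2.43e-05) and 1.5-fold higher in Irf2 KO (0.59 ± 0.11, limma adjusted p = 0.00932). In the libraries labelled Bcl6 cKO its difference was 0.00 ± 0.11.

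Eif1a, the autosomal eIF1A gene, had 6.22 and 5.72 log2 CPM in wild type, 6.30 and 6.23 in the libraries labelled Bcl6 cKO, 6.69 and 6.93 in Irf2 KO, and 6.45 and 6.70 in Nr4a1 KO. Every knockout library lay above both wild type libraries. It was higher by 0.84 ± 0.17 in Irf2 KO (limma adjusted p = 0.0125) and by 0.60 ± 0.17 in Nr4a1 KO (limma adjusted p = 0.0482), the second at the edge of the threshold. Per length, Eif1ax stood at 1.49 and 1.90 times Eif1a in wild type and at 0.314 and 0.307 times in Nr4a1 KO, so the order of the 2 genes turned round. The ratio was 1.32 and 1.42 in the libraries labelled Bcl6 cKO and 1.48 and 1.35 in Irf2 KO. Both genes encode nearly identical proteins, and the labels do not say how reads that fit several genes were assigned, so the split of reads between them is uncertain. Eif1ad, named for its eIF1A-like domain and chosen for mention after its values were seen, was not called against wild type in any genotype (limma adjusted p = 0.0563 in Irf2 KO, the lowest of the 3).

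**Figure D2:**
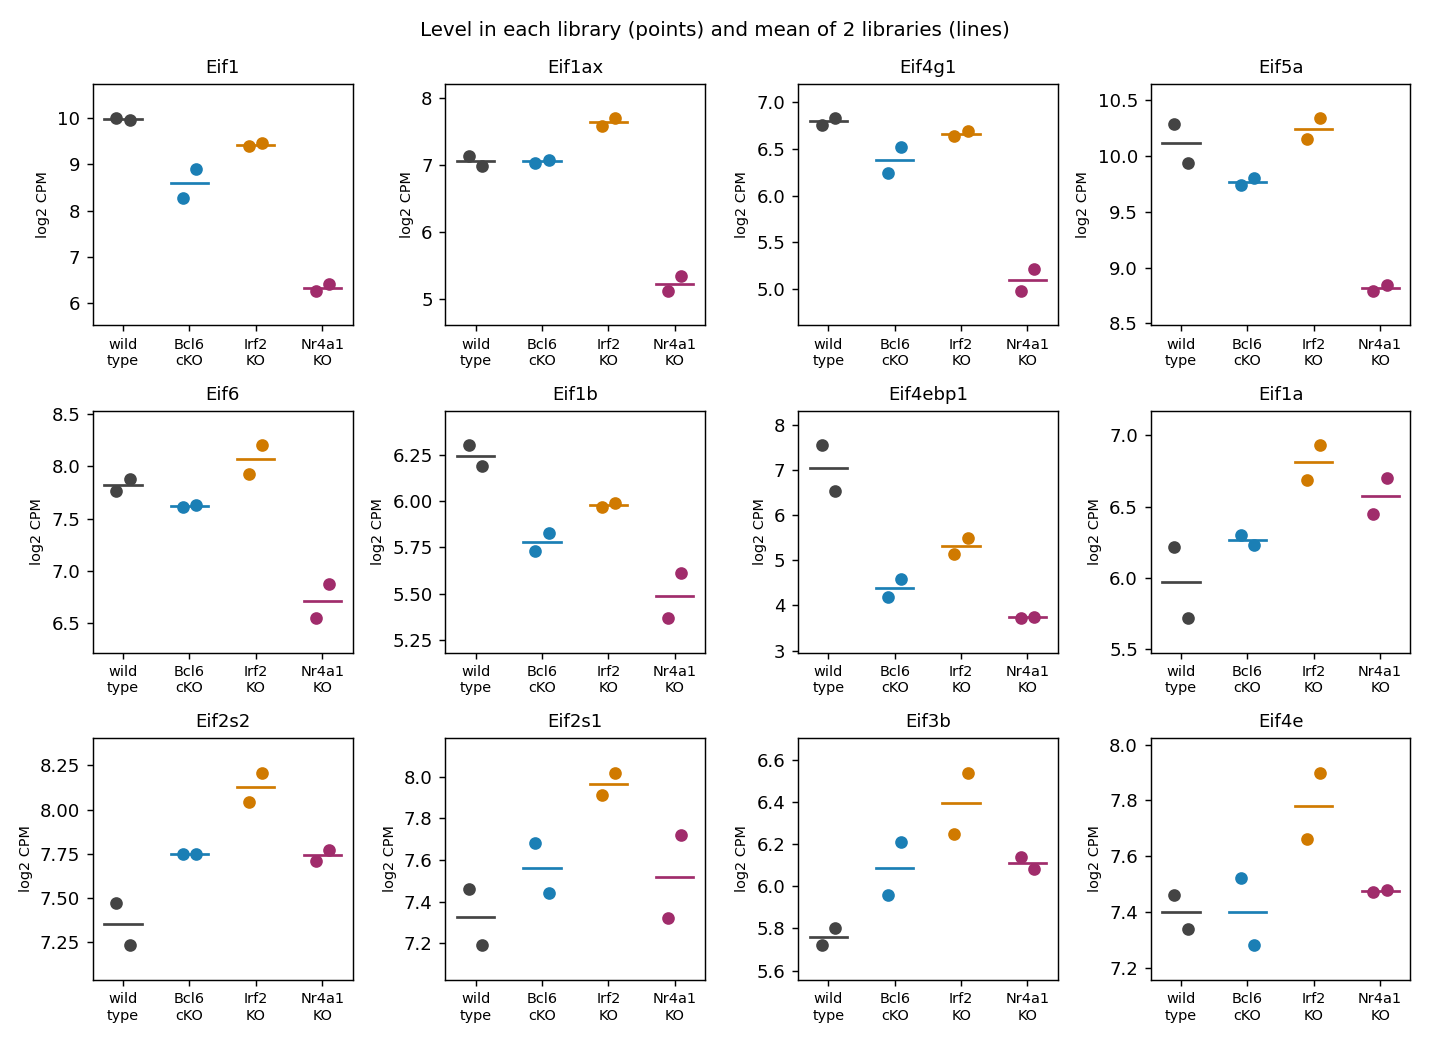
Log2 CPM (y axis, own scale for each gene) of 12 of the 50 genes in each of the 8 libraries (points), with the mean of 2 libraries as a line, by genotype (x axis). In Eif1, Eif1ax, Eif4g1, Eif5a and Eif6 both Nr4a1 KO libraries lie below the other 6, and in Eif4ebp1 both wild type libraries lie above the other 6.

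Among the eIF2 subunits, the alpha and beta genes were higher in Irf2 KO. Eif2s2, which encodes the beta subunit, had 7.47 and 7.23 log2 CPM in wild type, 7.75 and 7.75 in the libraries labelled Bcl6 cKO, 8.04 and 8.21 in Irf2 KO, and 7.71 and 7.77 in Nr4a1 KO. All knockout libraries lay above wild type and those of Irf2 KO lay highest. The difference was 0.78 ± 0.11 in Irf2 KO (1.72-fold, limma adjusted p = 0.00307), 0.39 ± 0.11 in Nr4a1 KO (limma adjusted p = 0.0420) and 0.40 ± 0.11 in the libraries labelled Bcl6 cKO, where it did not pass (limma adjusted p = 0.0741). Eif2s1, the alpha subunit that stress kinases phosphorylate, had 7.46 and 7.19 log2 CPM in wild type, 7.68 and 7.44 in the libraries labelled Bcl6 cKO, 7.91 and 8.02 in Irf2 KO, and 7.32 and 7.72 in Nr4a1 KO. Only the Irf2 KO libraries stood clear of the wild type range on the high side, with a difference of 0.64 ± 0.16 (limma adjusted p = 0.0220).

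The gamma subunit is encoded on both sex chromosomes. Eif2s3x had 4.44 and 4.38 log2 CPM in wild type, 4.43 and 3.95 in the libraries labelled Bcl6 cKO, 4.60 and 4.55 in Irf2 KO, and 4.17 and 4.15 in Nr4a1 KO. Eif2s3y, on the Y chromosome, had 6.33 and 5.91, then 6.20 and 6.11, then 5.86 and 5.95, and 6.65 and 6.56 in the same order. Reads of Eif2s3y were thus found in all 8 libraries, as were those of the Y-linked genes Ddx3y, Uty and Kdm5d. Neither gamma gene was called against wild type, although Eif2s3y came near the threshold in Nr4a1 KO (0.49 ± 0.14, limma adjusted p = 0.0509). Per length Eif2s3y stood at 3.37 and 2.64 times Eif2s3x in wild type, 3.11 and 4.07 times in the libraries labelled Bcl6 cKO, 2.20 and 2.43 times in Irf2 KO, and 5.09 and 4.89 times in Nr4a1 KO.

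Of the 5 eIF2B genes, which encode the exchange factor of eIF2, Eif2b3 alone was called in any comparison with wild type. It had 4.81 and 4.61 log2 CPM in wild type, 4.93 and 4.95 in the libraries labelled Bcl6 cKO, 5.13 and 5.74 in Irf2 KO, and 5.35 and 5.04 in Nr4a1 KO. The Irf2 KO libraries lay above wild type but far from each other, and the difference was 0.72 ± 0.20 (limma adjusted p = 0.0379). The tRNA-binding factors Eif2a and Eif2d were not called against wild type, with differences from -0.11 to 0.33 over the 3 genotypes.

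Of the 14 eIF3 subunit genes, 3 were called higher in Irf2 KO (beside 9.26% of all genes), 1 in Nr4a1 KO (beside 3.94%) and 0 in the libraries labelled Bcl6 cKO (beside 1.36%, and 3 there at an unadjusted limma p under 0.05). In Irf2 KO 12 of the 14 had a difference above 0, the median was 0.22, and 10 had both libraries above both of wild type, which 30.1% of all genes had. The called genes were Eif3a, the largest core subunit, Eif3b, which bridges the core to eIF3g and eIF3i, and Eif3i. Eif3b had 5.72 and 5.80 log2 CPM in wild type, 5.96 and 6.21 in the libraries labelled Bcl6 cKO, 6.25 and 6.54 in Irf2 KO, and 6.14 and 6.08 in Nr4a1 KO, so every knockout library lay above wild type. Its difference in Irf2 KO was 0.63 ± 0.13 (limma adjusted p = 0.0135).

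Eif3i had 8.24 and 8.34 log2 CPM in wild type, 8.25 and 8.37 in the libraries labelled Bcl6 cKO, 8.73 and 8.83 in Irf2 KO, and 8.42 and 8.42 in Nr4a1 KO. Irf2 KO stood apart from the other 6 libraries, by 0.49 ± 0.09 against wild type (limma adjusted p = 0.00801). Eif3a had 7.94 and 8.00 log2 CPM in wild type, 8.34 and 8.26 in the libraries labelled Bcl6 cKO, 8.32 and 8.33 in Irf2 KO, and 8.23 and 8.26 in Nr4a1 KO. Its level was thus alike in the knockouts and lower in wild type, and it was called in Irf2 KO (0.35 ± 0.08, limma adjusted p = 0.0192) but not in the libraries labelled Bcl6 cKO (0.33 ± 0.08, limma adjusted p = 0.0583) or in Nr4a1 KO (0.27 ± 0.08, limma adjusted p = 0.0593).

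In Nr4a1 KO the eIF3 genes had a median difference of 0.16, and Eif3e was the gene called, with 8.18 and 8.16 log2 CPM in wild type, 8.24 and 8.30 in the libraries labelled Bcl6 cKO, 8.40 and 8.41 in Irf2 KO, and 8.46 and 8.58 in Nr4a1 KO. All 6 knockout libraries lay above wild type, and the difference in Nr4a1 KO was 0.36 ± 0.08 (limma adjusted p = 0.0244). In the libraries labelled Bcl6 cKO the eIF3 median was 0.10. The 14 genes ranged from -0.19 to 0.74 there, from -0.04 to 0.63 in Irf2 KO and from -0.15 to 0.41 in Nr4a1 KO. The value of 0.74 belongs to Eif3j2, a weakly read copy of Eif3j1 whose reads may be shared with it.

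The cap-binding complex changed in its scaffold. Eif4g1 (ENSMUSG00000045983, chromosome 16, 20668313 to 20692884), the main eIF4G scaffold, had 6.76 and 6.83 log2 CPM in wild type, 6.24 and 6.52 in the libraries labelled Bcl6 cKO, 6.64 and 6.69 in Irf2 KO, and 4.98 and 5.21 in Nr4a1 KO. Both Nr4a1 KO libraries lay more than 1 log2 unit below every other library. Eif4g1 was 3.25-fold lower in Nr4a1 KO (-1.70 ± 0.13, limma adjusted p = 6.4e-05), and its differences in the libraries labelled Bcl6 cKO (-0.41 ± 0.13, limma adjusted p = 0.112) and in Irf2 KO (-0.13 ± 0.13, limma adjusted p = 0.506) did not pass.

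Eif4g3, a related cap scaffold, had 6.27 and 6.48 log2 CPM in wild type, 6.43 and 6.45 in the libraries labelled Bcl6 cKO, 5.99 and 6.0 in Irf2 KO, and 6.51 and 6.53 in Nr4a1 KO. Irf2 KO was the low genotype here, by -0.38 ± 0.11 against wild type (limma adjusted p = 0.0343). The call ended with quantile normalization (-0.30, limma adjusted p = 0.0734), with median centring (-0.28, 0.0894) and when fold changes were corrected for the GC content and length of transcripts (-0.14, 0.378). Per length Eif4g1 stood at 2.13 and 1.93 times Eif4g3 in wild type, 1.33 and 1.59 times in the libraries labelled Bcl6 cKO, 2.39 and 2.47 times in Irf2 KO, and 0.525 and 0.609 times in Nr4a1 KO. The order of the scaffolds was therefore the reverse in Nr4a1 KO of that in the other 6 libraries.

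The cap-binding protein and the helicase moved less. Eif4e had 7.46 and 7.34 log2 CPM in wild type, 7.52 and 7.28 in the libraries labelled Bcl6 cKO, 7.66 and 7.90 in Irf2 KO, and 7.47 and 7.48 in Nr4a1 KO. Its differences from wild type were 0.00 ± 0.12, 0.38 ± 0.12 and 0.08 ± 0.12, and none passed (the lowest limma adjusted p was 0.0518, in Irf2 KO). Eif4a1 had 8.73 and 8.58 log2 CPM in wild type, 8.70 and 8.62 in the libraries labelled Bcl6 cKO, 8.88 and 9.36 in Irf2 KO, and 8.28 and 8.49 in Nr4a1 KO. It was likewise not called against wild type (0.47 ± 0.15 in Irf2 KO, limma adjusted p = 0.0579, and -0.27 ± 0.15 in Nr4a1 KO, limma adjusted p = 0.275). The 12 genes of the eIF4E, eIF4G, eIF4A, eIF4B and eIF4H families had medians of -0.18 in Nr4a1 KO, -0.01 in Irf2 KO and -0.09 in the libraries labelled Bcl6 cKO.

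Eif4ebp1 (ENSMUSG00000031490, chromosome 8, 27260329 to 27276674), which encodes the mTORC1-regulated repressor of eIF4E, was lower in all 3 knockouts. It had 7.54 and 6.52 log2 CPM in wild type, 4.18 and 4.59 in the libraries labelled Bcl6 cKO, 5.13 and 5.48 in Irf2 KO, and 3.72 and 3.75 in Nr4a1 KO. The wild type libraries differed from each other by more than those of any other genotype, and still both lay above the other 6. It was 9.80-fold lower in Nr4a1 KO (-3.29 ± 0.30, limma adjusted p = 0.00016), 6.26-fold lower in the libraries labelled Bcl6 cKO (-2.65 ± 0.30, limma adjusted p = 0.00401) and 3.31-fold lower in Irf2 KO (-1.73 ± 0.30, limma adjusted p = 0.00649). The 3 values share the wild type libraries. Without Bcl6 cKO replicate 1 the call in that genotype ended (limma adjusted p = 0.0697), while the calls in Irf2 KO and Nr4a1 KO held whichever library was left out (highest limma adjusted p = 0.043 and 0.00081).

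The other eIF4E-binding proteins changed far less. In Irf2 KO all 3 lay below wild type without overlap, a share that was not counted over all genes. Of the 3, 2 were called lower there, beside 12.3% of all genes. In Nr4a1 KO and the libraries labelled Bcl6 cKO Eif4ebp1 alone was called, beside 11.2% and 3.65% of all genes called lower. Eif4ebp2, a related repressor of eIF4E, had 6.36 and 6.40 log2 CPM in wild type, 6.36 and 6.48 in the libraries labelled Bcl6 cKO, 6.06 and 6.09 in Irf2 KO, and 6.38 and 6.20 in Nr4a1 KO. It was not called in any comparison with wild type (-0.31 ± 0.11 in Irf2 KO, limma adjusted p = 0.0717). Eif4enif1, which carries eIF4E into the nucleus, had 5.25 and 5.31 log2 CPM in wild type, 5.24 and 5.16 in the libraries labelled Bcl6 cKO, 4.84 and 4.96 in Irf2 KO, and 5.31 and 5.22 in Nr4a1 KO. Irf2 KO was lower by 0.38 on the log2 scale in the mean, with a limma adjusted p of 0.0489 that 7 of the 8 fits leaving out a library took past the threshold (highest 0.207), as did median centring and the correction for GC content and length, among others (highest 0.258). Eif4ebp3 was not analysed here.

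Set beside its target, Eif4ebp1 went from above to below Eif4e. Per length it stood at 2.89 and 1.55 times Eif4e in wild type, 0.269 and 0.421 times in the libraries labelled Bcl6 cKO, 0.473 and 0.508 times in Irf2 KO, and 0.204 and 0.206 times in Nr4a1 KO. All 6 knockout libraries lay below 1 and both wild type libraries above it. The ratio of Eif4ebp2 to Eif4e ran only from 0.294 to 0.596 over the 8 libraries. These are ratios of mRNA levels, and protein and phosphorylation were not measured.

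**Figure D3:**
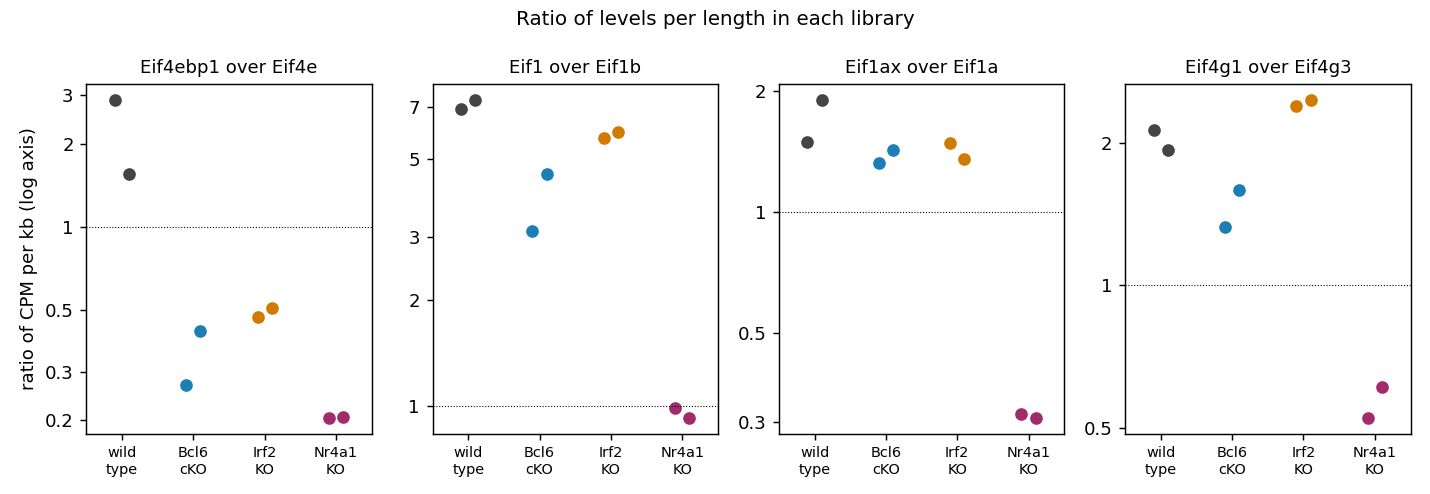
Ratio of CPM per kb of exon (log y axis) of 4 gene pairs in each of the 8 libraries (points) by genotype (x axis), with a dotted line at 1. Eif4ebp1 over Eif4e is above 1 in wild type and below 1 in all 6 knockout libraries, and the other 3 pairs are below 1 in the 2 Nr4a1 KO libraries alone.

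Past start codon recognition, Eif5a and Eif6 were lower in Nr4a1 KO. Eif5a (ENSMUSG00000078812, chromosome 11, 69916714 to 69921958) had 10.29 and 9.94 log2 CPM in wild type, 9.74 and 9.80 in the libraries labelled Bcl6 cKO, 10.15 and 10.34 in Irf2 KO, and 8.79 and 8.84 in Nr4a1 KO. It was 2.46-fold lower in Nr4a1 KO (-1.30 ± 0.12, limma adjusted p = 0.000221), and its differences in the libraries labelled Bcl6 cKO (-0.34 ± 0.12, limma adjusted p = 0.161) and Irf2 KO (0.13 ± 0.12, limma adjusted p = 0.474) did not pass. Its relative Eif5a2 was near the detection minimum, at -0.45 and 1.03 log2 CPM in wild type, and was not called. Eif6 (ENSMUSG00000027613, chromosome 2, 155819832 to 155826925) had 7.76 and 7.88 log2 CPM in wild type, 7.61 and 7.63 in the libraries labelled Bcl6 cKO, 7.93 and 8.20 in Irf2 KO, and 6.55 and 6.88 in Nr4a1 KO. Both Nr4a1 KO libraries lay below the other 6, and Eif6 was 2.15-fold lower there (-1.10 ± 0.13, limma adjusted p = 0.000791).

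Eif5, which triggers GTP hydrolysis by eIF2, had 6.78 and 6.63 log2 CPM in wild type, 6.95 and 7.0 in the libraries labelled Bcl6 cKO, 6.98 and 6.91 in Irf2 KO, and 7.16 and 6.99 in Nr4a1 KO. All knockout libraries lay above wild type and only the difference in Nr4a1 KO passed (0.37 ± 0.10, limma adjusted p = 0.0468). Eif5b was not called against wild type in any genotype.

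Calls differed in how firmly the 8 libraries carried them. In Nr4a1 KO the 7 lower genes, Eif1, Eif1ax, Eif1b, Eif4g1, Eif4ebp1, Eif5a and Eif6, were called under every alternative that was run, with a highest limma adjusted p of 0.0287 for Eif1b and 0.0148 for Eif6. The 4 higher genes, Eif1a, Eif2s2, Eif3e and Eif5, were not. Each lost its call without 1 or more libraries, for Eif3e without wild type replicate 1, wild type replicate 2 or Nr4a1 KO replicate 2 (limma adjusted p up to 0.109) and for the others without at least 6 of the 8 libraries in turn (limma adjusted p up to 0.238 for Eif1a, 0.221 for Eif2s2 and 0.22 for Eif5).

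In Irf2 KO the calls of Eif2s2 and Eif4ebp1 held whichever library was left out. Without Irf2 KO replicate 2 these 2 of the 11 calls stayed, without wild type replicate 2 there were 3, without Irf2 KO replicate 1 or wild type replicate 1 there were 7, and without either Bcl6 cKO library 8. The highest limma adjusted p on leaving out a library was 0.0545 for Eif3i, 0.0623 for Eif1ax, 0.0801 for Eif1a, 0.0868 for Eif3a and 0.0881 for Eif3b. It was 0.125 for Eif2s1, 0.182 for Eif4g3 and 0.205 for Eif2b3. Without either Nr4a1 KO library 10 or 11 of the calls stayed. Eif1 in the libraries labelled Bcl6 cKO held throughout (highest limma adjusted p = 0.0411).

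Of the 6 comparisons, Irf2 KO against Nr4a1 KO had the most called genes. Directly compared, 17 of the 50 genes passed (34%), 15 higher and 2 lower in Irf2 KO, beside 22.3% of all genes (12.4% higher and 9.94% lower). The largest were Eif1 (3.10 ± 0.18, limma adjusted p = 3.08e-05), Eif1ax (2.42 ± 0.11, limma adjusted p = 2.51e-05), Eif4g1 (1.57 ± 0.13, limma adjusted p = 0.00012), Eif4ebp1 (1.57 ± 0.30, limma adjusted p = 0.0072) and Eif5a (1.43 ± 0.12, limma adjusted p = 0.000162). Eif6 was higher by 1.35 ± 0.13 (limma adjusted p = 0.000299) and Eif4a1 by 0.74 ± 0.15 (limma adjusted p = 0.0101).

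The lower genes in Irf2 KO were Eif2s3y (-0.70 ± 0.14, limma adjusted p = 0.00934) and Eif4g3 (-0.53 ± 0.11, limma adjusted p = 0.00877). The calls of Eif1, Eif1ax, Eif4g1, Eif5a, Eif6 and Eif4g3 held whichever library was left out. Those of Eif4ebp1 (limma adjusted p = 0.0537) and Eif4a1 (0.0506) ended without Irf2 KO replicate 2, and that of Eif2s3y (0.0558) without Irf2 KO replicate 1. Without Irf2 KO replicate 2, 7 of the 17 calls remained.

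The libraries labelled Bcl6 cKO lay between Irf2 KO and Nr4a1 KO in Eif1, Eif1ax, Eif4g1, Eif5a and Eif6. In other genes, such as Eif3i and Eif3e, they lay below both. Against Nr4a1 KO 5 genes were higher and 0 lower (10%, beside 5.75% of all genes, 4.97% higher and 0.776% lower), namely Eif1 (2.27 ± 0.18, limma adjusted p = 0.00021), Eif1ax (1.83 ± 0.11, limma adjusted p = 0.000119), Eif4g1 (1.29 ± 0.13, limma adjusted p = 0.000799), Eif5a (0.96 ± 0.12, limma adjusted p = 0.00257) and Eif6 (0.91 ± 0.13, limma adjusted p = 0.00478). The call of Eif6 ended without Bcl6 cKO replicate 2 (limma adjusted p = 0.0605), and the other 4 held. The Eif4ebp1 difference of 0.65 ± 0.30 was not called.

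Against Irf2 KO 5 genes passed in the libraries labelled Bcl6 cKO (10%, beside 9.55% of all genes), 1 higher and 4 lower, beside 5.68% higher and 3.87% lower among all genes. Eif1 (-0.83 ± 0.18, limma adjusted p = 0.0241), Eif1ax (-0.59 ± 0.11, limma adjusted p = 0.0174), Eif3i (-0.47 ± 0.09, limma adjusted p = 0.0175) and Eif5a (-0.47 ± 0.12, limma adjusted p = 0.0486) were lower and Eif4g3 (0.45 ± 0.11, limma adjusted p = 0.0343) was higher. All 5 calls ended on leaving out Irf2 KO replicate 2 and all 5 on leaving out Bcl6 cKO replicate 1, with 0 genes called in either fit. Without Bcl6 cKO replicate 2, 1 of the 5 calls was kept (Eif1), and without Irf2 KO replicate 1, 1 was kept (Eif3i) among the 4 genes then called. The highest limma adjusted p over these was 0.127 for Eif1 and 0.244 for Eif5a. In this comparison 40 of the 50 genes had a difference below 0, with a median of -0.22 beside 0.00 for all genes, and 35 had both libraries below both of Irf2 KO, which 30.9% of all genes had.

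Levels per length of exon, in CPM per kb, put these changes on the scale of the whole set. In wild type Eif1 was first of the 50 genes at 482 CPM per kb, followed by Eif5a at 469. Eif3h at 355, Eif3k at 163 and Eif4a3 at 127, named for their rank, came next, and Eif5a2 was last at 0.275. Eif1 and Eif5a changed places between the wild type libraries (486 and 477 against 526 and 412), so their order there is within the spread.

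In Nr4a1 KO Eif1 was at 38.3 CPM per kb and stood at rank 18 of the 50, while Eif3h at 351 stood first. Eif4ebp1 went from rank 15 (63.3 CPM per kb) in wild type to 42 (6.07), Eif1ax from 26 (25.3) to 40 (7.13), Eif4g1 from 37 (15.2) to 45 (4.70) and Eif6 from 10 (83.5) to 17 (39.1). Most of the other genes kept a level close to that of wild type.

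**Figure D4:**
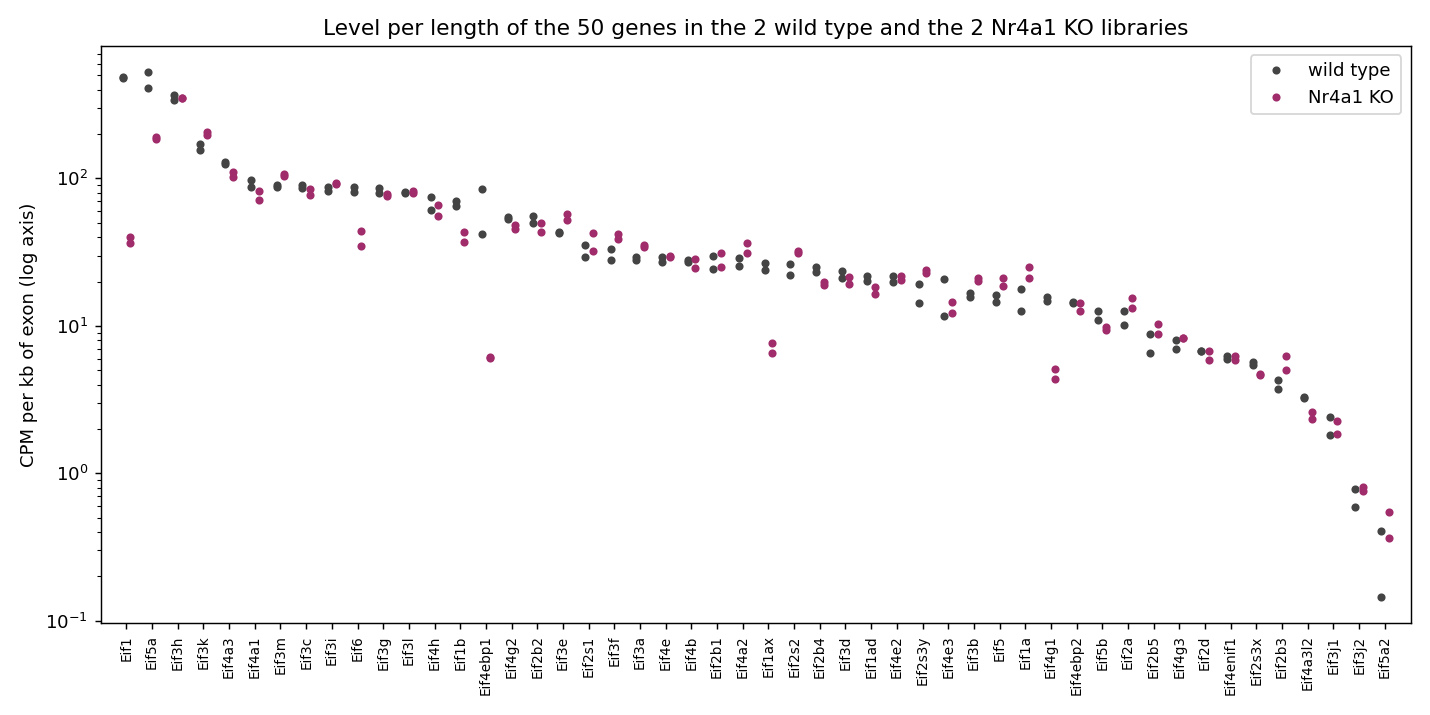
Level per length (CPM per kb of exon, log y axis) of the 50 genes (x axis, ordered by wild type level) in the 2 wild type and the 2 Nr4a1 KO libraries (points). Eif1, Eif5a, Eif6, Eif4ebp1, Eif1ax and Eif4g1 lie well below their wild type levels in Nr4a1 KO, Eif1 falling from 482 to 38.3 CPM per kb.

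Several of these genes have near copies whose reads may be shared. The pseudogenes Eif1-ps1 and Eif5al3-ps, named after their values were seen, moved with their parent genes in Nr4a1 KO, Eif1-ps1 by -3.10 ± 0.45 (limma adjusted p = 0.00223) and Eif5al3-ps by -1.21 ± 0.19 (limma adjusted p = 0.00334). Eif1-ps1 had 379 and 295 reads in the wild type libraries beside 59374 and 51331 of Eif1. Values of Eif3j1 and Eif3j2, and of Eif4a3 and Eif4a3l2, carry the same uncertainty.

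GC content moved with the changes. Across the 50 genes the Spearman correlation of log2 fold change with the GC content of the longest transcript was -0.48 in Nr4a1 KO, -0.40 in Irf2 KO and -0.54 in the libraries labelled Bcl6 cKO. Across 12740 genes it was -0.34, -0.19 and -0.32, in the same order. These correlations are across genes, which share the libraries and are not independent replicates.

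With fold changes corrected for GC content and transcript length, the 7 lower genes of Nr4a1 KO were still called. Eif1 stood at -3.58, Eif4ebp1 at -3.21, Eif1ax at -1.99, Eif4g1 at -1.48, Eif5a at -1.02, Eif1b at -0.63 and Eif6 at -0.61 (limma adjusted p = 0.0148). Eif1ax, at 39.71% GC, thus lay on the other side of the trend from Eif6 at 57.87%. The 4 genes called higher in Nr4a1 KO were not called after the correction, although Eif1a at 0.53 (limma adjusted p = 0.0598) and Eif5 at 0.30 stayed about as far above wild type as before, while Eif3e stood at 0.15 (limma adjusted p = 0.263). Genes called only after it were Eif3b (0.75, limma adjusted p = 0.00371) and Eif3k (0.53, limma adjusted p = 0.00908), both higher, and Eif5b (-0.41, limma adjusted p = 0.0488), lower. In Irf2 KO the correction kept 9 of the 11 calls, ended those of Eif4g3 and Eif4enif1, and added Eif1ad, Eif2d, Eif4a1 and Eif6 as higher.

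**Figure D5:**
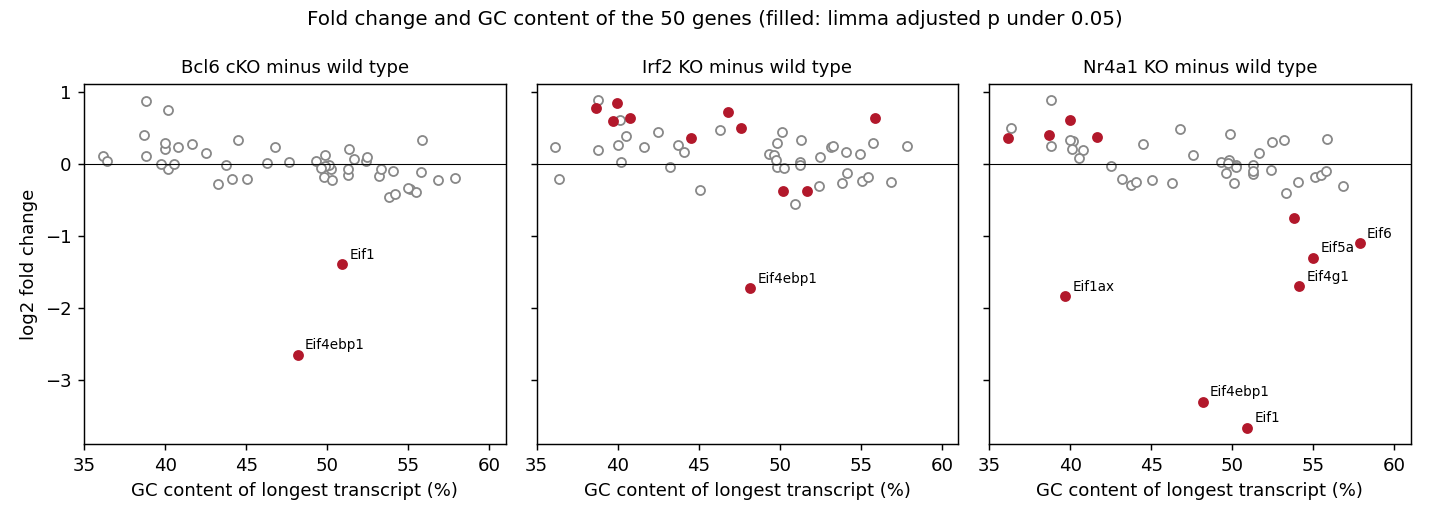
Log2 fold change against wild type (y axis) and GC content of the longest transcript in percent (x axis) for the 50 genes in each knockout. Filled points have a limma adjusted p under 0.05, genes beyond 1 log2 unit are named, and the points slope downward (Spearman correlation -0.54, -0.40 and -0.48) with Eif1, Eif4ebp1 and Eif1ax far below the slope in Nr4a1 KO.

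Markers of other cells differed between genotypes in the same libraries. The early myeloid genes (6 of 7 listed were read, Mpo, Elane, Prtn3, Ctsg, Ms4a3 and Cd34, none at 0) summed to 3570 to 4550 CPM in Irf2 KO, beside 1690 to 1940 in wild type, 2140 to 2480 in the libraries labelled Bcl6 cKO and 1890 to 1970 in Nr4a1 KO. Cd34 went the other way from this sum, with 10 and 11.6 CPM in wild type and 4.63 and 2.72 in Irf2 KO (-1.60 ± 0.28, limma adjusted p = 0.00712). The neutrophil genes (12 of 12 read) summed to 514 to 1200 CPM in Irf2 KO, 1880 to 2240 in wild type, 1040 to 1250 in the libraries labelled Bcl6 cKO and 2150 to 2590 in Nr4a1 KO. Against wild type, Irf2 KO was also higher in the dendritic cell genes (5 of 7 read, 356 to 419 CPM against 131 to 212), a sum that was mostly Bst2 while the other 4 genes were below wild type, and lower in the nonclassical monocyte genes (8 of 8 read, 151 to 163 against 441 to 558), the B cell genes (7 of 8 read, 38.1 to 43.8 against 88.3 to 89) and the erythroid genes (5 of 7 read, 3.56 to 6.66 against 27.6 to 29.7). The part of these markers in the eIF2 and eIF3 differences of Irf2 KO was not tested.

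In Nr4a1 KO, where Eif1 and Eif4g1 fell, the sums of the classical monocyte, early myeloid, neutrophil, B cell and dendritic cell genes overlapped the ranges of wild type. Those of the nonclassical monocyte genes, a list that holds Nr4a1 itself (377 to 413 CPM against 441 to 558), and of the erythroid genes (10.6 to 17.3 against 27.6 to 29.7) lay below wild type. The 1 gene read of the 6 T and NK cell genes (13.1 to 17.3 CPM against 7.36 to 10) and the 3 Y-linked genes (79.7 to 84.7 against 55.4 to 70.7) lay above it. The part of these in the falls was not tested.

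The pathways around initiation were examined with 4 lists. The shares of all genes called were 9.26% higher and 12.3% lower in Irf2 KO, 3.94% and 11.2% in Nr4a1 KO, and 1.36% and 3.65% in the libraries labelled Bcl6 cKO. Of 20 tested partners at the mRNA ends and in ribosome recycling, 6 were higher and 1 lower in Irf2 KO, 1 higher and 2 lower in Nr4a1 KO, and 0 passed in the libraries labelled Bcl6 cKO (5 higher and 1 lower there at an unadjusted limma p under 0.05). In Irf2 KO Abce1, the ribosome recycling ATPase, was higher by 0.73 ± 0.14 (limma adjusted p = 0.00968), the poly(A)-binding Pabpc4 by 0.72 ± 0.19 (0.0296), Larp1, which binds mRNAs of the translation machinery, by 0.56 ± 0.12 (0.0140) and the helicase gene Ddx3x by 0.47 ± 0.12 (0.0241). Pabpc4 went the other way in Nr4a1 KO, with 3.60 and 3.77 log2 CPM in wild type, 4.39 and 4.42 in Irf2 KO, and 2.91 and 2.62 in Nr4a1 KO (-0.92 ± 0.19, limma adjusted p = 0.0129). Ddx3x was higher by 0.62 ± 0.12 in Nr4a1 KO (limma adjusted p = 0.00865) and Cyfip1, which links eIF4E to an mRNA-silencing complex, was lower (-0.47 ± 0.11, limma adjusted p = 0.0207). Each of these 7 calls ended on leaving out at least 1 library of the 2 genotypes compared, wild type replicate 2 in every case (highest limma adjusted p = 0.129, for Ddx3x in Irf2 KO).

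Of 29 tested genes of mTORC1 and the kinases that act on initiation, 0 were higher in any knockout, and 6 were lower in Irf2 KO, 5 in Nr4a1 KO and 0 in the libraries labelled Bcl6 cKO, beside 12.3%, 11.2% and 3.65% of all genes called lower. At an unadjusted limma p under 0.05 the libraries labelled Bcl6 cKO had 2 higher and 7 lower genes, Irf2 KO 1 and 10, and Nr4a1 KO 2 and 10. The median over the list was -0.33 in Irf2 KO and -0.23 in Nr4a1 KO, beside -0.04 and 0.01 over all genes. Sesn1, which encodes a leucine-sensing inhibitor of mTORC1, was lower in Irf2 KO (-1.56 ± 0.26, limma adjusted p = 0.0059), and this call held whichever library was left out and after the correction for GC content and length (-1.39, 0.0127). The correction ended the other 5 calls of the list in Irf2 KO (limma adjusted p from 0.0544 for Rhebl1 to 0.531 for Rps6kb2). Rhebl1 (-0.91 ± 0.26, limma adjusted p = 0.0381), Rps6ka1 (-0.54 ± 0.12, limma adjusted p = 0.0163) and Mknk1 (-0.53 ± 0.11, limma adjusted p = 0.0116), which encodes a kinase of eIF4E, were also lower there, and apart from the correction their calls ended without wild type replicate 2 and without 1 or more other libraries (highest limma adjusted p = 0.183, 0.101 and 0.0707).

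In Nr4a1 KO the lower genes of that list included Rraga and Lamtor1, which act with mTORC1 at the lysosome, while Lamtor2, Lamtor3, Lamtor4, Lamtor5 and Rragc of the same complexes were not called (differences from -0.02 for Lamtor2 to 0.39 for Rragc). Rraga, a Rag GTPase that recruits mTORC1, had 5.78 and 4.59 log2 CPM in wild type and 3.52 and 3.81 in Nr4a1 KO, without overlap but with the wild type libraries far apart (-1.52 ± 0.33, limma adjusted p = 0.0153). Lamtor1, the anchor of the Rag GTPases, was lower by 0.69 on the log2 scale (limma adjusted p = 0.00223), and both calls held whichever library was left out, although Rraga was not called in a fit of only the 2 groups compared. Ddit4, a stress-induced inhibitor of mTORC1, had 1.14 and 3.12 log2 CPM in wild type and -0.74 and -1.94 in Nr4a1 KO. Ddit4 was 11.1-fold lower (-3.47 ± 0.72, limma adjusted p = 0.0128). Without wild type replicate 2 the difference was -2.48 and the call ended (limma adjusted p = 0.0826), and the authors' own test did not call it (0.108). Tsc2 was lower by -0.52 ± 0.14 (limma adjusted p = 0.0415), a call lost in 7 of the 8 fits that left out a library (up to 0.219, with -0.38 without wild type replicate 2).

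Of 26 tested genes of the eIF2 stress response, 6 were higher and 0 lower in Irf2 KO (beside 9.26% and 12.3% of all genes), 2 higher and 4 lower in Nr4a1 KO (beside 3.94% and 11.2%), and 0 higher and 1 lower in the libraries labelled Bcl6 cKO. The shares in Nr4a1 KO were near those of all genes, and the list was not tested between genotypes. Genes higher in Irf2 KO were the asparagine synthetase Asns at 2.20 ± 0.47 (limma adjusted p = 0.0136), the amino acid carrier Slc7a5 at 1.53 ± 0.31 (0.0119), Phgdh of serine synthesis at 1.17 ± 0.18 (0.00459), the glycyl-tRNA synthetase Gars at 0.68 ± 0.11 (0.00583), and Shmt2 and Psat1. The call of Shmt2 in Irf2 KO ended in 2 of the 8 fits leaving out a library. That of Psat1 in Irf2 KO ended in 6 of them and without the variance trend. The carrier genes Slc3a2 (-0.65, 0.0922) and Slc7a11 (-1.0, 0.0585) lay below wild type there without overlap and were not called. Phgdh and Gars held whichever library was left out, while Asns ended without wild type replicate 2 (0.0762) and Slc7a5 without Irf2 KO replicate 2 or wild type replicate 1 (up to 0.0795).

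Atf4, whose mRNA is translated when eIF2 is phosphorylated, had 7.09 and 7.14 log2 CPM in wild type, 6.93 and 7.08 in the libraries labelled Bcl6 cKO, 7.03 and 7.30 in Irf2 KO, and 6.31 and 6.57 in Nr4a1 KO. Only Nr4a1 KO was below the rest, by -0.67 ± 0.13 against wild type (limma adjusted p = 0.00949), a call that ended without wild type replicate 2 (0.0596) and after the correction for GC content and length (-0.29, 0.145). Slc3a2, the partner chain of Slc7a5, was lower in Nr4a1 KO (-1.72 ± 0.25, limma adjusted p = 0.00195) and in the libraries labelled Bcl6 cKO (-1.42 ± 0.25, limma adjusted p = 0.0156). The first call held whichever library was left out, and the second ended without wild type replicate 1 or either Bcl6 cKO library (up to 0.154). Mthfd2, a mitochondrial folate enzyme, was lower in Nr4a1 KO (-0.82 ± 0.12, limma adjusted p = 0.00178).

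Of 15 tested genes of elongation and termination, 4 were higher and 0 lower in Irf2 KO (beside 9.26% and 12.3% of all genes), 2 higher and 2 lower in Nr4a1 KO (beside 3.94% and 11.2%), and 0 higher and 2 lower in the libraries labelled Bcl6 cKO (beside 1.36% and 3.65%). Dohh, which completes the hypusine of eIF5A, had 3.27 and 3.39 log2 CPM in wild type, 1.60 and 1.68 in the libraries labelled Bcl6 cKO, 2.71 and 2.91 in Irf2 KO, and 1.09 and 1.11 in Nr4a1 KO. The genotypes did not overlap, and their order from wild type down to Nr4a1 KO was that of Eif1. Dohh was 4.69-fold lower in Nr4a1 KO (-2.23 ± 0.21, limma adjusted p = 0.000199), where Eif5a was lower too, and 3.22-fold lower in the libraries labelled Bcl6 cKO (-1.69 ± 0.21, limma adjusted p = 0.00584), a call that ended without Bcl6 cKO replicate 1 (0.0703). Dhps, the enzyme before it in the same modification, was not called (-0.83 ± 0.33 in Nr4a1 KO, limma adjusted p = 0.131) and is named for that role after its values were seen.

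Eefsec, the elongation factor for selenocysteine, had 4.69 and 4.97 log2 CPM in wild type, 3.01 and 3.66 in the libraries labelled Bcl6 cKO, 4.51 and 4.43 in Irf2 KO, and 1.69 and 2.32 in Nr4a1 KO. It was 7.11-fold lower in Nr4a1 KO (-2.83 ± 0.27, limma adjusted p = 0.000222) and lower in the libraries labelled Bcl6 cKO (-1.49 ± 0.27, limma adjusted p = 0.0189), a call that ended without either wild type library or Bcl6 cKO replicate 1 (up to 0.157). In Irf2 KO the termination factor gene Gspt1 was higher by 0.78 ± 0.12 (limma adjusted p = 0.00423), and the elongation factor genes Eef1g by 0.64 ± 0.11 (0.00554) and Eef1b2 by 0.61 ± 0.08 (0.00304). Eef1e1, which is in this list by its symbol, was higher there by 0.74 ± 0.13 (limma adjusted p = 0.00724). The calls of Gspt1, Eef1g and Eef1b2 held whichever library was left out, and that of Eef1e1 ended without Irf2 KO replicate 2 (0.0528). Gspt1 (0.44 ± 0.12, limma adjusted p = 0.0410) and Eef1b2 (0.37 ± 0.08, limma adjusted p = 0.0201) were also higher in Nr4a1 KO, calls that ended without either wild type library among others (up to 0.154).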

How the data were processed

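Per the labels' protocols, RNA of integrity above 8.0 was made into libraries from 10 ng with a full-length cDNA kit, with 12 to 15 cycles of amplification, and read as pairs of 150 bases. The submitters' processing notes name STAR, featureCounts, Salmon and limma with build mm10. The deposited table (13789 rows, 45 repeated) gives log2 CPM per library, which the authors computed before deposit. These values carry a scaling per library beyond the read total. Adding back the offsets of 0.5 and 1 returned whole reads (within 0.01) for 100% of values. The deposited p-values of the authors, per the file headers in limma's style, served only as an alternative.

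The model, run in limma 3.58.1 under R 4.3.3, had a mean for each of the 4 genotypes over all 8 libraries and a prior variance with a trend (4 residual and 4.66 prior degrees of freedom). Testing covered the 12752 genes whose mean reached 1 CPM, two-sided, with Benjamini-Hochberg adjustment per comparison at 0.05. The spread is assumed alike in all genotypes. The procedure was also run on simulated data with independent noise per gene. Such data lack the GC trend seen here, so that run cannot vouch for the calls. Levels per length used exon lengths of GENCODE M21, and plots were made in Python 3.11.15 (matplotlib 3.10.9).

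The members and lists were chosen with earlier results of these data known. Named with values were the eIF4E-binding proteins and core factors whatever their result, called members (up to 10 per direction against wild type, up to 5 between knockouts), up to 4 called genes per list, and the targeted genes. Others are said to be chosen after their values were seen.

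Alternatives were median centring, quantile normalization, weights per library, a filter of 4 CPM or none, no variance trend, a fit of only the 2 groups compared, a block for the replicate number, each library left out (the lone library is then assumed to vary like the others), the authors' own test, limma voom on recovered reads, and a correction for GC content and length. Limma voom took the plain read totals as library sizes, so it also dropped the further scaling of the deposited values. The recovered reads, 100% of them whole, gave 718, 2739 and 2041 called genes over the whole table for the libraries labelled Bcl6 cKO, Irf2 KO and Nr4a1 KO against wild type.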

Additional observations from a re-analysis of the deposited data

How the results depend on the processing

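The number of called genes among the 50 depended on the settings. In the libraries labelled Bcl6 cKO against wild type it was 2, and 4 with library weights or with the authors' own test, and leaving out a library gave 1 to 3. In Irf2 KO against wild type it was 11, and 6 without the variance trend and 2 to 15 on leaving out a library. In Nr4a1 KO against wild type it was 11, and 7 without the trend or with only the 2 groups compared, 17 with quantile normalization, 18 with median centring, and 7 to 10 on leaving out a library. For Irf2 KO against Nr4a1 KO it was 17, and 7 to 17 on leaving out a library. For the libraries labelled Bcl6 cKO against Irf2 KO it was 5, and 0 without the trend, 10 with library weights, 11 with only the 2 groups compared, 8 with limma voom, 10 with the correction for GC content and length, and 0 to 7 on leaving out a library (limma, unadjusted p under 0.05 in 3 higher and 19 lower genes). For the libraries labelled Bcl6 cKO against Nr4a1 KO it was 5, and 4 to 5 on leaving out a library. Apart from the fits with fewer libraries, the cause of these shifts was not tested. Mknk2, a kinase gene of the mTORC1 list, was called lower in Nr4a1 KO (-0.48) and stood at 0.20 after the correction for GC content and length (limma adjusted p = 0.274), and the cause was not tested. Over the single genes, 349 values under an alternative lost their call, 89 gained one and 1 value of a called gene reversed. The remaining 3971 were counted as the same, which includes any value of an uncalled gene that changed direction. Same-numbered libraries deviated together with correlations from -0.00287 to 0.183, not all above 0.1, so the numbers were not taken to pair the samples. With the replicate number as a block the counts were 2, 11, 10, 17, 6 and 5 in the order given above. With 2 libraries per genotype, differences near the spread were not detectable, and read depth was not the limit for any gene named above 1 CPM.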
